A study of Mus musculus with 14 samples.

Results

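CatSper is the calcium channel of the sperm flagellum, and its genes are the subject here. The 8 genes followed are Catsper1, Catsper2, Catsper3 and Catsper4, which encode the pore-forming subunits, and Catsperb, Catsperd, Catsperg1 and Catsperg2, which encode accessory subunits with large parts outside the cell. They were picked by symbol from the 38444 genes listed in the spermatogonia (Spg) or the spermatocyte (Spc) count table. All 8 were listed for Spc and 7 for Spg, where Catsper1 had no entry. As background, the 4 pore proteins assemble around 1 shared pore in the membrane of the principal piece of the tail. Calcium entry through it drives the vigorous beat that sperm need at the egg, and male mice without the channel are infertile. The channel works in mature sperm, while transcription of sperm genes begins in meiosis and continues in round spermatids.

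Polyadenylated RNA was sequenced from sorted germ cells of Dnmt3CKO/KO mice (KO), which lack the DNA methyltransferase that silences young retrotransposons in male germ cells, and of wild-type littermates (WT). Spg came from animals at postnatal day 14 and were sorted as Ep-CAM positive and beta-2-microglobulin negative cells, giving 3 KO and 3 WT libraries. Spc came from animals older than 20 days and were sorted by Hoechst and propidium iodide staining, giving 4 KO and 4 WT libraries. Stage, age and sort thus changed together and cannot be told apart in any comparison of Spc with Spg, the interaction included. Spermatogenesis of this mutant is known to stop at the pachytene stage, so the WT sort can hold later cells that the KO testis lacks, and fewer cells of a type cannot be told apart from less RNA per cell in these bulk libraries.

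Total counts ran from 40555726 to 53323651 per library. Replicates 1 and 4 of Spc were much more alike than other pairs in both genotypes (chi-square per degree of freedom over genes and TE of 13.1 in KO and 17.3 in WT, against 152 to 336 for the other pairs). They differed by more than sampling noise and were counted as 2 libraries, although the labels do not say whether they share an animal, and were summed as an alternative. KO and WT stand for the libraries labelled so, since gene counts of Dnmt3c do not show the lesion (52 to 57 counts in KO Spc and 11 to 28 in WT Spc). The share of counts in transposable elements (TE) did separate the labels in Spc, at 5.74% to 8.67% in KO and 1.77% to 2.93% in WT. Summed pachytene markers (8 genes, such as Ldhc and Piwil1) ran from 169 to 411 CPM (counts per 1000000 counts of the library) in KO Spc and from 7345 to 14380 in WT Spc. Summed spermatid markers (8 genes, such as Prm1 and Acrv1) ran from 4.90 to 11.5 CPM in KO Spc and from 57.7 to 1277 in WT Spc. Of these, 7 of 8 pachytene and 8 of 8 spermatid markers were called lower in KO Spc by the test described with the first comparison. Over all genes, 30.7% were called lower and 28.0% higher. Of the markers of earlier germ cells, 6 of 8 spermatogonial genes were called higher and 1 lower (sums of 342 to 833 CPM in KO Spc and 148 to 335 in WT Spc), as were 4 and 1 of 8 early meiotic genes. Markers of other testis cells were called higher in KO Spc for 5 of 5 Leydig, 4 of 4 macrophage, 3 of 4 peritubular and 0 of 6 Sertoli genes, where 28.0% of all genes were called higher. The part of these cells in the results was not tested. Leydig cell markers summed to 46.6 to 276 CPM in KO Spc, highest in replicates 1 and 4, against 12.4 to 24.6 in WT Spc. Among Spg, WT replicate 2 stood apart with 1829 CPM of pachytene markers, against 252 and 534 in the other WT libraries and 136 to 170 in KO.

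The genes lie apart on chromosomes 2, 4, 7, 12, 13, 17 and 19 of GRCm38, and only Catsperg1 and Catsperg2 share 1. Catsperg1 (chr7:29181321-29214035) and Catsperg2 (chr7:29697219-29727032) are near-identical in parts. Of all stretches of 75 bases in the longest Catsperg1 transcript, 28.7% also occur in Catsperg2, and 28.4% the other way, so counts of this pair are uncertain to that extent. No such stretch was shared between any other 2 members. Catsper2 overlaps Pdia3 on the opposite strand by 18 exon bases, which strand-aware counting keeps apart. Catsperb is by far the longest locus (chr12:101404653-101626009, 221357 bases), and its introns hold 115 TE copies on its own strand and 167 on the other.

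The starts of the genes differ in composition, which is shown by the promoters of 5 members. RefSeq promoters (250 bases before to 50 after the start, GRCm38.p6) were held for 6 of the 8 members, with none listed for Catsper1 and Catsperg2. Letters are 5′ to 3′ along the gene, and capitals mark a match to 1 of 5 motifs searched on both strands, namely the cyclic AMP response element TGACGTCA, the MYB motif AACTGNC, the TATA box TATAAA, the NRF1 motif and the RFX X-box. No match overlapped another.
Catsper2 (chr2:121413743-121414042, minus strand): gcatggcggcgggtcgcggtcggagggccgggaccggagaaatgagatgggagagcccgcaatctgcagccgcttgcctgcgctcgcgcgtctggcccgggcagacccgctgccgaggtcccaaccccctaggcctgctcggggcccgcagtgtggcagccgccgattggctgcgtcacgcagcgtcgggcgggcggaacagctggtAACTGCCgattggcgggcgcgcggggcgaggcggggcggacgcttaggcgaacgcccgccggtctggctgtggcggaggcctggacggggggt
Catsper3 (chr13:55784329-55784628, plus strand): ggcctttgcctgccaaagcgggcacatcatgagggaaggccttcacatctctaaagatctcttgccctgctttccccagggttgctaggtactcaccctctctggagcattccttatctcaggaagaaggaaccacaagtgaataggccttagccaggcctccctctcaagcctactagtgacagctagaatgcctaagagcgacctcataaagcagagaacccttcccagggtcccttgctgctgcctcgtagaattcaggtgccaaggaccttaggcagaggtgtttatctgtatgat
Catsper4 (chr4:134227334-134227633, minus strand): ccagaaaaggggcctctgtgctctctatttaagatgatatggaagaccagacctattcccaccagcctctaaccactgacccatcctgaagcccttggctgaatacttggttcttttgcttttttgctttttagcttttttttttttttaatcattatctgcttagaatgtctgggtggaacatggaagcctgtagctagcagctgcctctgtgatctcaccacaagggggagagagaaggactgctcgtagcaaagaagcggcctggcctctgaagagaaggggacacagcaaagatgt
Catsperb (chr12:101404423-101404722, plus strand): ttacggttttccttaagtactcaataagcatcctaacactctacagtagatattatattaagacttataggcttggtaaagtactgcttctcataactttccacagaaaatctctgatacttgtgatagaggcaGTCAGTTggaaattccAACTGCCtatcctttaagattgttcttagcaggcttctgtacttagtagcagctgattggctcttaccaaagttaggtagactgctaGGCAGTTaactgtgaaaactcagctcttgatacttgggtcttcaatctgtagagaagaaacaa
Catsperg1 (chr7:29213984-29214283, minus strand): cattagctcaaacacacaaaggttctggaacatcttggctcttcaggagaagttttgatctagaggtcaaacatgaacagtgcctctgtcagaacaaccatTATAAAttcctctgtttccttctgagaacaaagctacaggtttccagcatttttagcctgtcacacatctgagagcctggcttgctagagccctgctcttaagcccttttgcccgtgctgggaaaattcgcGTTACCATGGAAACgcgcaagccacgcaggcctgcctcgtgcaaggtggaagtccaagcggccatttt

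Catsper2 starts in CpG-rich sequence, with 41 CpG sites in 300 bases, more than in 96.5% of the 32851 promoters in the table. Catsper3, Catsper4 and Catsperb have 3, 2 and 1 CpG sites, against a median of 7 over the table. MYB letters occurred at position -43 from the Catsper2 start and at -116, -100 and -13 in Catsperb, while 12.8% of all promoters hold them. Catsperg1 carried an RFX X-box at -18, a motif found in 0.450% of promoters, and a TATA box at -149, found in 13.6%, while its second listed promoter (9 CpG sites) had none of the 5 motifs. The cyclic AMP response element (1.79% of promoters) and the NRF1 motif (4.603%) had no match in any member promoter, and none of the 5 motifs occurred in the Catsper3 and Catsper4 promoters or in either listed promoter of Catsperd (29 and 12 CpG sites). These matches describe letters and are no evidence of binding.

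The first comparison asked how CatSper RNA differed between KO and WT Spc. All 8 members were lower in KO, with no overlap between the 4 KO and the 4 WT libraries for any of them. Each was called in edgeR's quasi-likelihood test (Benjamini-Hochberg adjusted p under 0.01), against a background in which 58.8% of 21919 genes were called and 30.7% were called lower. The median log2 fold change was -6.57 over the 8 members and 0.11 over all genes tested. Non-overlap in the lower direction was found in 34.3% of genes. Scaled by library totals in place of the trimmed mean of M-values (TMM), the median of all genes was 0.79 and the 12954 calls divided into 8074 higher and 4880 lower, where TMM gave 6145 and 6740, and all 8 members stayed lower (-9.19 to -3.58).

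Among the pore genes, Catsper1 encodes a subunit with a histidine-rich tail that has been proposed to take part in the response of the channel to acidity. It had 0, 0, 3 and 2 counts in KO Spc replicates 1 to 4 and 956, 152, 1520 and 858 in WT. Summed over libraries and scaled, WT exceeded KO by a ratio of 1041, with an exact 95% counting interval of 446 to 3209 that covers counting error only. The fitted log2 fold change was -9.84 ± 1.03 (SE, adjusted p = 3.39e-05) and moved to -10.60 without KO replicate 3. This was the emptiest KO record of the 8, and every WT library stood well above it.

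Catsper2 kept the highest KO level. Its CPM, scaled by TMM within the stage, was 16.01, 11.84, 18.34 and 17.56 in KO and 484, 150, 201 and 472 in WT. The mean was 15.9 ± 2.9 (SD, n = 4) against 327 ± 176, a log2 fold change of -4.36 ± 0.43 (SE, adjusted p = 2.3e-05), or 20.5-fold lower. The KO libraries lay close together, while WT replicates 2 and 3 were well under replicates 1 and 4.

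Catsper3 and Catsper4, the remaining pore genes, were near the detection limit in KO. Catsper3 had 7, 15, 4 and 8 counts in KO and 460, 96, 1000 and 327 in WT (log2 fold change -6.29 ± 0.74, adjusted p = 6.88e-05). Catsper4 had 3, 24, 0 and 0 counts in KO and 644, 125, 1300 and 572 in WT (-7.18 ± 1.26, adjusted p = 0.000672). KO replicate 2 held nearly all of the KO reads of Catsper4, and without it the fold change was -9.64. In WT both genes were highest in replicate 3 and lowest in replicate 2.

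Per exon length, the accessory genes stood higher in WT Spc than Catsper1, Catsper3 and Catsper4. Catsperb, the beta subunit gene, had 24, 0, 6 and 73 counts in KO against 10981, 4162, 4629 and 8961 in WT, or 0.462 ± 0.603 against 195 ± 111 CPM. Its log2 fold change was -8.73 ± 1.15 (adjusted p = 0.000132), and -10.13 without KO replicate 4. The KO reads of Catsperb were concentrated in replicates 1 and 4, and without both the fold change was -11.88. Those KO libraries had the highest marker sums of Leydig cells (276 and 231 CPM, against 46.6 and 52.3 in replicates 2 and 3), Sertoli cells (210 and 199 against 89.2 and 57.6) and pachytene cells (353 and 411 against 169 and 307). The part of these cells was not tested.

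Catsperd, the delta subunit gene, was 3.97 ± 0.30 CPM in KO and 233 ± 105 in WT (-5.87 ± 0.39, adjusted p = 3.59e-06). Catsperg1 fell 24.96-fold, from 341 ± 119 to 13.6 ± 1.1 CPM (-4.64 ± 0.30, adjusted p = 3.21e-06). Its neighbour Catsperg2 fell 116-fold, from 386 ± 151 to 3.33 ± 0.76 CPM (-6.86 ± 0.39, adjusted p = 2.53e-06). Per kilobase of exon the gamma subunit pair was within its spread in WT Spc (55.4 ± 17.7 CPM for Catsperg1 and 62.9 ± 22.8 for Catsperg2) and apart in KO Spc (2.204 ± 0.156 and 0.538 ± 0.117).

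**Figure D1:**
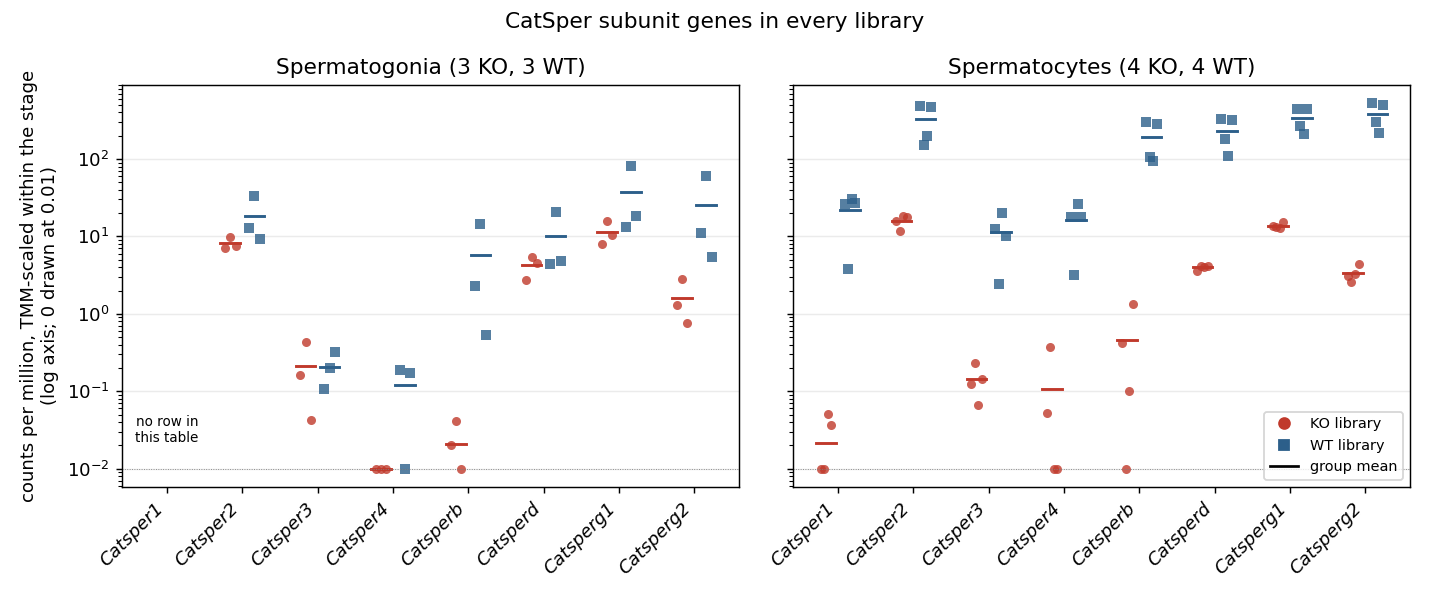
TMM-scaled CPM (log axis) of the 8 CatSper subunit genes in each Spg library (left) and Spc library (right), with circles for KO, squares for WT and bars for group means. In Spc every KO library sits under every WT library for all 8 genes, while in Spg only Catsperb and Catsperg2 are separated and Catsper1 has no entry.

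The other genes of the complex, 8 in the list used here, showed the same direction in Spc. All 8 were called lower, with a median log2 fold change of -6.27 and a range from -9.57 to -3.74, and none overlapped between groups, where 30.7% of all genes were called lower and 34.3% were lower without overlap. Slco6c1, a transporter protein found with the channel, went from 277 ± 154 CPM in WT to 0.367 ± 0.346 in KO. Catsperz fell by 8.71 on the log2 scale, although it shares 587 exon bases with Kcnk4 on the same strand and its counts are therefore uncertain. Efcab9, the calcium sensor that pairs with the CATSPERZ protein, kept 0.915 ± 0.107 CPM in KO against 15.8 ± 8.4 in WT. C2cd6, needed to bring the channel to the tail, went from 677 ± 309 CPM in WT to 9.11 ± 0.45 in KO. Catspere1 and Catspere2 (-8.19 ± 0.71 and -4.14 ± 0.37) share 16.6% and 13.9% of their 75-base stretches, and GENCODE M21 lists Catspere1 as a pseudogene. Without KO replicate 4 the fold change of Catspere1 was -8.97, and without KO replicate 2 that of Tmem249 was -7.25 in place of -6.32.

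The list of 12 other genes for ion transport and signalling in the flagellum was less uniform. Of the 12, 10 were called lower and 1 higher in KO Spc (30.7% and 28.0% of all genes), with a median log2 fold change of -4.21. Slc9c1, the sperm sodium-proton exchanger, fell by 8.37 on the log2 scale, Adcy10, the soluble adenylyl cyclase, by 5.50, and Kcnu1, the sperm potassium channel, by 3.94. Hvcn1, a proton channel also made by immune cells, rose by 3.47 ± 0.51 (adjusted p = 0.000238), from 0.624 ± 0.204 to 6.95 ± 3.62 CPM. Macrophage markers (4 genes) summed to 15.01 to 89.1 CPM in KO Spc and 2.24 to 4.29 in WT Spc, with the highest sum in KO replicate 2, where Hvcn1 was lowest among KO libraries (3.63 CPM). Their part in the rise was not tested.

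The second comparison took the same genes at the earlier stage, in Spg. No member was called among the 5 that passed the filter on low counts, in a background of 0.0436% of 20659 genes called, which were 8 higher and 1 lower (1509 genes at an unadjusted p under 0.05). All 5 had negative fold changes, 4 had an unadjusted p under 0.05, and DESeq2's Wald test, which called 591 of 32640 genes (447 lower), called 2 of them, Catsperb and Catsperg2. The median log2 fold change over the 5 was -1.70, against 0.02 over all genes. Same-numbered KO and WT Spg libraries deviated together clearly only for replicate 1 (correlations of 0.757, 0.186 and 0.298), so the pairing is uncertain. With the replicate number as a block, which called 108 of 20659 genes (81 lower), Catsperb (-7.83, adjusted p = 0.00085) and Catsperg2 (-3.50, adjusted p = 0.00505) were called too.

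Catsperb had 1, 2 and 0 counts in KO Spg replicates 1 to 3 and 108, 579 and 25 in WT. The groups did not overlap, but the WT libraries differed among themselves far more than those of KO. The fitted log2 fold change was -7.93 ± 1.52 (adjusted p = 0.0889), -5.90 without WT replicate 2 and -8.76 without KO replicate 2.

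Catsperg2 was 1.29, 2.81 and 0.764 CPM in KO Spg and 11.1, 60.9 and 5.41 in WT, again without overlap, as were 7.08% of genes with KO lower. Its log2 fold change was -3.99 ± 0.96 (adjusted p = 0.173), -2.33 without WT replicate 2 and -4.63 without KO replicate 2. Catsper2 (8.15 ± 1.55 against 18.4 ± 12.8 CPM), Catsperd (4.239 ± 1.404 against 9.991 ± 9.297) and Catsperg1 (11.5 ± 3.9 against 37.4 ± 37.3) overlapped between genotypes. Their log2 fold changes of -1.17, -1.24 and -1.70 came to -0.43, -0.12 and -0.46 without WT replicate 2. That library, the one with the most pachytene marker RNA, had the highest value for each of the 5 tested members, and its part in these differences was not tested.

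Catsper3 and Catsper4 did not pass the filter in Spg. Catsper3 had 8, 21 and 2 counts in KO and 5, 8 and 15 in WT, with full overlap. Catsper4 had 0 counts in every KO library and 9, 0 and 8 in WT, so WT replicate 2 did not differ from KO. At this depth no genotype difference was detectable for Catsper3, whose WT replicate 2 was not the highest.

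An interaction term fitted to the 14 libraries compared the KO effect of Spc with that of Spg. It was called more negative in Spc than in Spg for 4 of 7 members tested, in a background of 25.7% of 24340 genes called and 14.6% called lower. The estimates of all 7 were negative. The 4 were Catsper2 (-3.24 ± 0.62, adjusted p = 0.0014), Catsper3 (-6.37 ± 1.11, adjusted p = 0.000858), Catsperd (-4.70 ± 0.71, adjusted p = 0.000373) and Catsperg1 (-3.00 ± 0.69, adjusted p = 0.00387). The call of Catsperg1 was lost without Spg KO replicate 2 or 3, Spg WT replicate 1 or 3, or Spc KO replicate 1 (adjusted p = 0.0103 to 0.016), with library totals (-2.21, adjusted p = 0.0163) and with Spc replicates 1 and 4 summed (adjusted p = 0.0139). Without Spg WT replicate 2 the difference was -3.895 for Catsper2, -5.72 for Catsperd and -4.14 for Catsperg1, and without Spg KO replicate 2 it was -5.27 for Catsper3, with each of these called. Catsperg2 missed the threshold (-2.95 ± 0.91, adjusted p = 0.0187) and was called without Spg WT replicate 2 (-4.49, adjusted p = 0.000383), with the replicate block (-3.12, adjusted p = 0.00936) and with DESeq2's Wald test (-3.02, adjusted p = 0.004). It stayed uncalled in the other 21 of 24 alternatives. Its difference came as near to 0 as -2.14, and its adjusted p was highest without Spg KO replicate 2 (0.0814). Scaled by library totals, the median of all genes was 0.90 in place of 0.20 and 4252 genes were called more positive and 1733 more negative, in place of 2690 and 3561. Catsperb (-0.90 ± 3.49) and Catsper4 (-1.84 ± 7.24) were not called, with KO counts in Spg at or near 0. Over the alternatives, Catsperb ran from -3.97 to 0.016 and Catsper4 from -4.30 to -0.91. With KO Spc replicates 1 and 4 left out together, an alternative added once the values were known, 2 members were called, with the calls of Catsper2 (adjusted p = 0.0103) and Catsperg1 (adjusted p = 0.0193) lost.

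**Figure D2:**
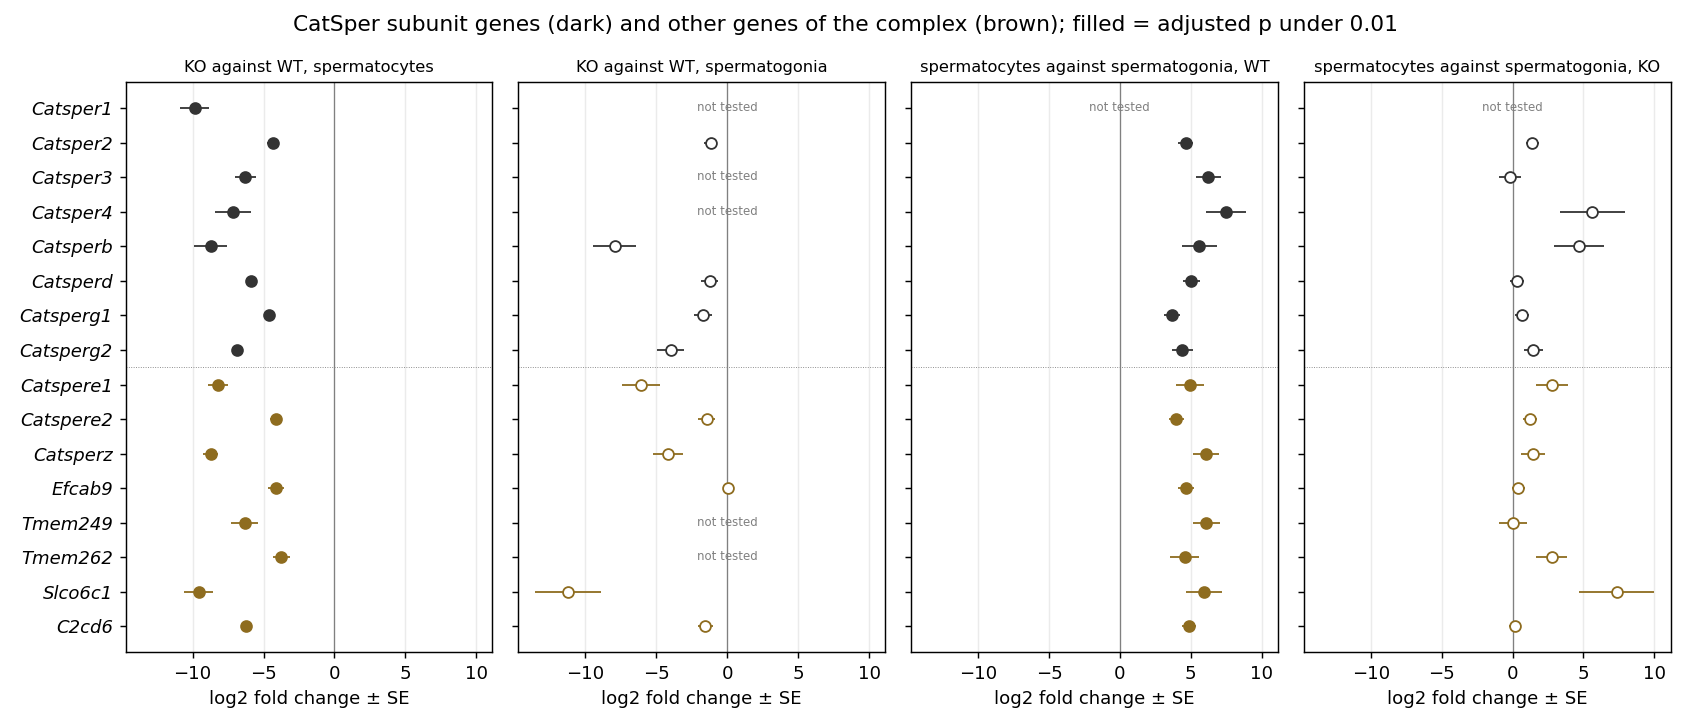
Log2 fold changes with their standard errors for the 8 CatSper subunit genes (dark) and 8 other genes of the complex (brown) in 4 comparisons, with filled symbols for an adjusted p under 0.01. All 16 are filled and negative for KO against WT in Spc, none is filled in Spg, and all 15 tested are filled and positive for Spc against Spg in WT but none in KO.

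The difference between the sorted stages was taken from WT Spc against WT Spg, which shares its Spc libraries with the first comparison. Age and sort differed along with stage. All 7 members tested were higher in Spc, by log2 fold changes from 3.69 ± 0.55 (Catsperg1) to 7.48 ± 1.43 (Catsper4), and none overlapped between stages. The background was 52.5% of 24340 genes called, 29.2% called higher and 35.3% higher without overlap, with a median log2 fold change of 0.02 over all genes and 5.04 over the 7. The pore genes rose by 4.64 ± 0.52 (Catsper2), 6.23 ± 0.89 (Catsper3) and 7.48, and the accessory genes by 5.59 ± 1.24 (Catsperb), 5.04 ± 0.59 (Catsperd), 3.69 and 4.41 ± 0.75 (Catsperg2). Without Spg WT replicate 2 the rise was 5.24 for Catsper2, 6.82 for Catsper4, 7.47 for Catsperb, 6.0 for Catsperd, 4.77 for Catsperg1 and 5.91 for Catsperg2. Without Spg WT replicate 3 it was 4.91 for Catsperb and 3.79 for Catsperg2. Library totals gave 4541 genes called higher and 8724 lower, in place of 7103 and 5674, with all 7 members still called higher. All 8 other genes of the complex were called higher as well (3.98 to 6.09), but Slco6c1 lost its call without Spg WT replicate 1 (5.43, adjusted p = 0.0102). Without Spg WT replicate 2 the rise was 7.05 for Catspere1, 4.82 for Catspere2, 8.14 for Catsperz, 7.79 for Slco6c1 and 5.70 for C2cd6. Without Spg WT replicate 1 it was 6.91 for Tmem262 and 5.48 for Catsperz, and without Spg WT replicate 3 it was 4.24 for Catspere1, 5.43 for Catsperz, 5.23 for Slco6c1, 3.87 for Tmem262 and 6.73 for Tmem249.

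In KO no rise of a member was called. None of the 7 members was called between KO Spc and KO Spg in edgeR's test, in a background of 3.05% of 24340 genes called. Of all genes, 24.5% had an unadjusted p under 0.05, as had 4 of the 7 members. DESeq2's Wald test called 7.43% of 31060 genes and 1 member, Catsperb (4.90, adjusted p = 0.0071). The number of genes called depended on the libraries, from 742 with all to 112 without Spg KO replicate 3, 157 without replicate 2 and 216 without replicate 1. On 1 scale over the 14 libraries, Catsperd was 3.57 ± 1.18 CPM in KO Spg and 4.52 ± 0.31 in KO Spc. Catsperg1 was 9.66 ± 3.33 and 15.5 ± 1.1, and Catsper3 0.181 ± 0.171 and 0.162 ± 0.080. Catsper2 had the most separated libraries, at 6.88 ± 1.32 in KO Spg and 18.1 ± 3.2 in KO Spc (log2 fold change 1.398 ± 0.442, adjusted p = 0.0669). The fitted differences of Catsper4 (5.63 ± 2.32, adjusted p = 0.16) and Catsperb (4.69 ± 1.77, adjusted p = 0.118) were larger, with 0 and 3 counts in all of KO Spg and 27 and 103 in KO Spc, and that of Catsperg2 was 1.46 ± 0.67 (adjusted p = 0.196). Without Spc KO replicate 2 the difference of Catsper4 was 3.06. That of Catsperb was 3.24 without Spc KO replicate 4 and 5.47 without Spg KO replicate 2. For Catsperg2 it was 2.06 without Spg KO replicate 2 and 1.08 without Spg KO replicate 3. The test called none of these genes, which does not show that they stayed level. Catsper2, Catsperg1 and Catsperg2 did not overlap between the KO stages, and 15.4% of genes were higher in KO Spc without overlap. Against these, WT Spc stood at 266 ± 113 CPM for Catsperd, 390 ± 125 for Catsperg1, 13.1 ± 8.7 for Catsper3 and 372 ± 190 for Catsper2.

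Levels of different genes were compared per length, as CPM per kilobase of all exons of a gene on the scale over 14 libraries. In WT Spc the order of the means was Catsper2 (101 ± 51), Catsperd (74.0 ± 31.4), Catsperg2 (62.9 ± 22.8), Catsperg1 (55.4 ± 17.7), Catsperb (40.1 ± 21.8), Catsper1 (11.5 ± 6.4), Catsper3 (9.63 ± 6.38) and Catsper4 (8.89 ± 5.36). Neighbours in this order differed by less than their SD, except Catsperb and Catsper1. Single libraries departed from the order of the means. In WT replicate 2, Catsperd (59.7) and Catsperg2 (51.9) stood above Catsper2 (48.8), and in replicate 3 Catsperb (20.1) was close to Catsper3 (17.6) and Catsper1 (16.6). Catsper1, Catsper3 and Catsper4 took the 3 lowest places in each of the 4 libraries. In KO Spc the order began with Catsper2 (4.91 ± 0.86) and Catsperg1 (2.204 ± 0.156) and ended with Catsper1 (0.0112 ± 0.0133). With the longest transcript as length, the WT order was kept except that Catsper4 (10.8) passed Catsper3 (9.85).

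**Figure D3:**
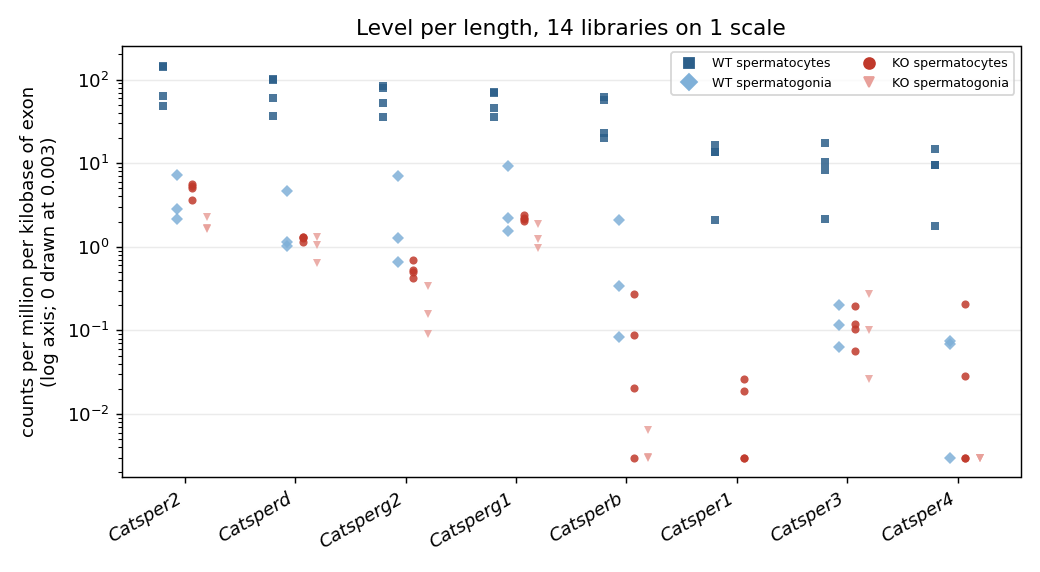
Level per length of each CatSper subunit gene, in CPM per kilobase of exon (log axis), with 1 symbol per library in 4 groups. In WT Spc 5 genes average between 40.1 and 101 and Catsper1, Catsper3 and Catsper4 between 8.89 and 11.5, while the means of both KO groups lie under that of WT Spc for every gene with a value. Catsper1 has no KO Spg or WT Spg value.

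The WT Spc libraries divided the members by which replicate was highest. Catsper1, Catsper3 and Catsper4 were highest in WT replicate 3 and lowest in replicate 2, with the highest library 8.05 to 8.38 times the lowest. All 8 spermatid markers had the same highest and lowest library, 8.12 to 34.0 times apart. Catsper2, Catsperb, Catsperd, Catsperg1 and Catsperg2 were highest in replicate 1, with replicate 4 next, and 2.10 to 3.22 times above their lowest library, which was replicate 2 for Catsper2 and replicate 3 for the others. Summed pachytene markers ran 14380, 11260, 7345 and 13940 CPM over replicates 1 to 4, but single markers differed in their order. Hspa2, Ldhc and Pou5f2 were highest in replicate 1 and lowest in 3, Pgk2 and Ccna1 were highest in 1 and lowest in 2, and Adam3, Mybl1 and Piwil1 were highest in 4, 4 and 2. The rest of the complex divided likewise, with Efcab9, Tmem249 and Tmem262 highest in replicate 3 and Catspere1, Catspere2, Catsperz, Slco6c1 and C2cd6 highest in replicate 1 or 4. The division was noticed in these data and is given as a description with no test.

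**Figure D4:**
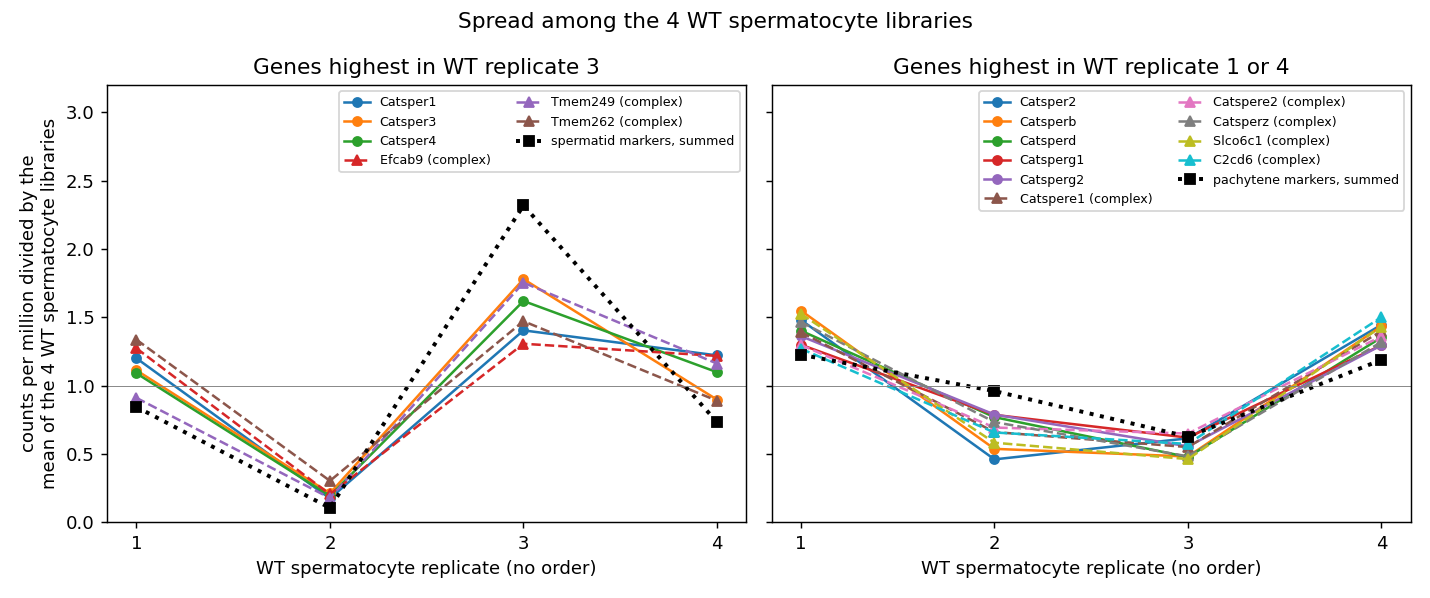
CPM of each gene in the 4 WT Spc libraries, divided by its mean over them, for CatSper genes highest in replicate 3 (left) and in replicate 1 or 4 (right), with black squares for the summed spermatid (left) or pachytene (right) markers. Replicates have no order and the lines only join the values of 1 gene. Replicate 2 lies near 0.2 for Catsper1, Catsper3 and Catsper4, and the genes on the right stay between 0.4 and 1.6.

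For each member present in both tables, the non-member gene with the most similar profile was found over the 14 libraries, among 16918 genes with a mean CPM of at least 1. Likeness was the root mean square difference of log2(CPM + 0.5) after centring each gene on its own mean. The nearest genes were Bbof1 for Catsper2 (0.202), Cpa5 for Catsper3 (0.185), Ccin for Catsper4 (0.241), Ankar for Catsperb (0.187), 1700001G11Rik for Catsperd (0.197), Rfx2 for Catsperg1 (0.237) and Ccdc39 for Catsperg2 (0.300). Bbof1 and Ccdc39 encode proteins of motile cilia, Ccin calicin of the sperm head, Cpa5 a carboxypeptidase and Rfx2 a transcription factor of spermatid genes.

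The introns of the members hold TE copies whose expression the deposited TPM values give per copy and strand, which offered a reading apart from the exon counts. TPM is relative to all TE copies of a library, so KO Spc values are set against a larger TE total, and a short copy can owe its value to very few reads. Values were summed over all intronic copies, with none left out for a low value, and neighbouring copies share 1 locus and are not independent. The 284 copies on the strand of their host gene summed to 234, 171, 236 and 218 TPM in KO Spc replicates 1 to 4 and to 3487, 3786, 2325 and 3027 in WT Spc. The sums were lower in KO, as in the exon counts. How often intronic copies of other genes separate the groups in this way was not worked out. Catsperd introns gave a mean of 38.5 TPM in KO and 1086 in WT, and those of Catsperg2 13.2 and 791. In Spg the same 284 copies summed to 169, 221 and 193 TPM in KO and 287, 1021 and 317 in WT, where replicate 2 again stood apart.

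Copies on the opposite strand of their host gene gave less signal. The 401 such intronic copies summed to 103, 59.2, 82.7 and 102 TPM in KO Spc and 26.3, 32.6, 59.5 and 19.8 in WT Spc, with 1 WT library just above the lowest KO library. Catsperb had the highest KO Spc mean of the 8 members. Summed over all 167 opposite-strand copies of Catsperb, TPM was 68.5, 18.1, 50.6 and 69.1 in KO Spc replicates 1 to 4 and 5.32, 0.57, 4.92 and 9.61 in WT. The summed value in KO Spg was 34.0, 11.7 and 11.2, and in WT Spg 4.10, 9.22 and 9.31. The sums were higher in KO in both stages, with a narrow margin in Spg, and the sum in KO Spc was again highest in replicates 1 and 4. How often the sums of other genes separate in this way was not worked out. The choice of Catsperb was made after the sums of all members were seen, so this is given as a description with no test.

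On the gene's own strand the 115 intronic copies of Catsperb summed to 29.5, 5.11, 11.2 and 29.4 TPM in KO Spc and 208, 197, 232 and 196 in WT. In Spg they summed to 3.95, 6.36 and 2.35 TPM in KO and 6.45, 45.04 and 13.5 in WT, with WT replicate 1 only just above KO replicate 2. The highest single copies in KO Spc were both pieces of a young L1 element of the L1Md_T subfamily, which adjoin, span 6667 bases and begin 42.2 kb into the gene. Its longer piece (chr12:101446886-101452554) had 4.97, 1.51, 3.60 and 7.38 TPM in KO Spc and 0, 0.0326, 0 and 0 in WT, while KO and WT Spg overlapped. The element was picked for its high KO Spc values, which favours KO over WT in Spc, so its values are a description with no test. Reads of near-identical L1 copies are shared among them, so the source of these reads is uncertain.

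**Figure D5:**
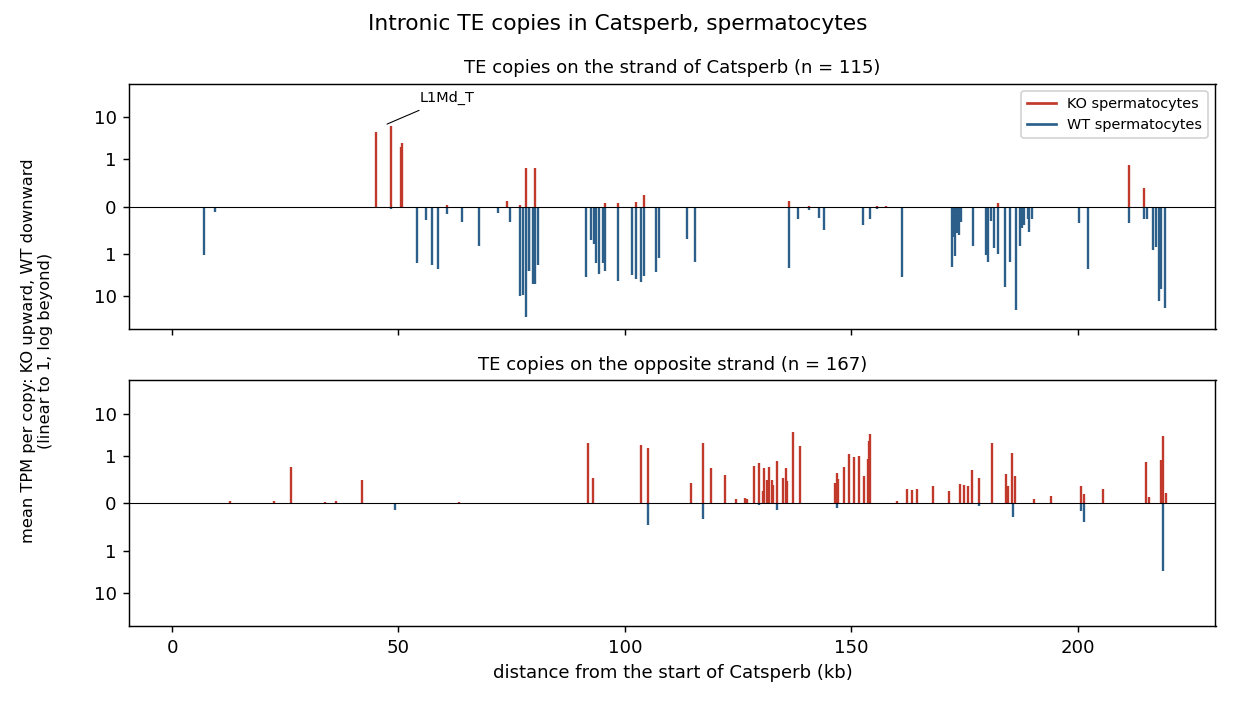
Mean TPM of each intronic TE copy of Catsperb in Spc by its distance from the gene start (kb), with KO drawn upward and WT downward on an axis linear to 1 and logarithmic beyond, for copies on the strand of the gene (top, n = 115) and on the opposite strand (bottom, n = 167). Most signal in the top panel is WT and most in the bottom one is KO, and the L1Md_T pieces are the highest KO bars on the strand of the gene.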

How the data were processed

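The authors aligned 108-nt read pairs of stranded mRNA libraries to GRCm38 with STAR 2.7.3a and GENCODE M25, and deposited raw counts per gene and TE subfamily from TEtranscripts 2.2.3. The deposited TPM values per TE copy came from TElocal 1.1.1 and sum to 1000000 per library over TE copies. The count tables also hold the authors' own comparison (normalized means, fold changes, test statistics and p-values from DESeq2), which was not used.

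Counts were tested with edgeR 4.0.16 in R 4.3.3 (filterByExpr, TMM over genes and TE, quasi-likelihood test, two-sided). P-values were Benjamini-Hochberg adjusted over all features and called under 0.01. The SE of a fold change was derived from the test, as its absolute log2 value divided by the square root of the F statistic. It is therefore no separate measure of error, and SEs of different contrasts need not combine. Each stage was fitted alone, and the 14 libraries together for the interaction and the stage contrasts, on features in both tables. The fits were tested on simulated data. Alternatives used DESeq2 1.42.0. Python 3.11.15, pandas 2.3.3 and matplotlib 3.10.9 made tables and plots. Positions are from GENCODE M21.

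Named genes were the 8 members, 8 other complex genes, 12 flagellar genes with up to 4 examples, the nearest-pattern genes and Dnmt3c. Members and lists were chosen with earlier results of these data known. Labels do not say whether replicates are separate animals, so p-values measure the spread between libraries. Same-numbered KO and WT Spg libraries deviated from their group means with correlations of 0.757, 0.186 and 0.298, so their numbers were taken to pair them, although KO 2 correlated more with WT 3 (0.335) than with WT 2. In Spc these were 0.105, 0.23, 0.01 and 0.162, and no pairing was assumed.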

Additional observations from a re-analysis of the deposited data

Results flagged for a closer look

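A single library stood far from the other 3 of its group in 4 of 40 groups of 4 Spc libraries examined. Chance gives about 1 in 20 for independent groups. These groups share their libraries, and replicates 1 and 4 are much alike, so no excess over chance can be read from the count. The gap to the nearest library, as a share of the group's range, was 0.834 for Catsper1, 0.92 for Efcab9 and 0.873 for Kcnu1, each with WT replicate 2 lowest, and 0.86 for Catsper4 with KO replicate 2 highest.

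The KO effect differed between Spc and Spg, by the interaction test in edgeR, for 4 CatSper subunit genes. The differences on the log2 scale were -3.24 (Catsper2), -6.37 (Catsper3), -4.70 (Catsperd) and -3.00 (Catsperg1). It also differed for 5 of the 8 other genes of the complex, Catspere2 (-2.77), Catsperz (-4.61), Efcab9 (-4.24), Tmem249 (-6.05) and C2cd6 (-4.74), where 25.7% of all genes were called and 14.6% were called lower. Of 25 alternatives, the call was lost in 14 for Catspere2, 11 for Catsperz and 4 for Tmem249 (adjusted p up to 0.0245, 0.0222 and 0.0165), and in none for Efcab9 and C2cd6. The difference without Spg WT replicate 2 was -3.66 for Catspere2, -6.73 for Catsperz, -5.61 for C2cd6 and -6.18 for Adcy10. The value without Spg WT replicate 3 was -4.02 for Catsperz and -6.75 for Tmem249, and without Spc KO replicate 2 it was -6.94 for Tmem249. Among the flagellar examples it differed for Adcy10 (-5.40), Kcnu1 (-3.24) and Hvcn1 (3.202), the last in the opposite direction. Kcnu1 lost this call with KO Spc replicates 1 and 4 left out together (adjusted p = 0.0111).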

How the results depend on the processing

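All 8 members stayed called lower in KO Spc, and all 7 called higher in WT Spc, under every alternative run, leaving out each library included. In Spg 0 members were called in edgeR's test and without each library in turn, 2 with DESeq2's Wald test, 1 with no filter beyond 1 count and 2 with the replicate block. Genes called in Spg numbered 9, 591 with DESeq2, 144 without the filter, 108 with the block and 56 at an adjusted p under 0.05. The interaction called 3 to 5 members when 1 library was left out and 2 without KO Spc replicates 1 and 4, and its genes numbered 6251, 9807 with DESeq2, 3521 with Spc replicates 1 and 4 summed and 11191 at an adjusted p under 0.05. Catsperg1 lost its call with library totals (-2.21, adjusted p = 0.0163). The replicate block called Catsperg2 in the interaction (-3.12, adjusted p = 0.00936), and in Spc, where no pairing was assumed, it changed no member's call. Between KO stages DESeq2 called 1 member, and genes called numbered 742, 2308 with DESeq2, 375 with the block and 2043 at an adjusted p under 0.05. Scaling by library totals moved the median log2 change of all genes to -0.76 between WT stages, -0.06 between KO stages and 0.05 in Spg, and no member changed direction. Signs changed only for uncalled values: with 1 library left out, the interaction ran from -2.83 to 0.016 for Catsperb and from -0.50 to 2.037 for Slco6c1 (-0.79 without KO Spc replicates 1 and 4), Catsper3 between KO stages from -0.67 to 0.83 and Dnmt3c in Spg from -0.21 to 0.29. With the longest transcript as length, WT Spc levels were 162 for Catsper2, 88.6 for Catsperg1 and 99.2 for Catsperg2 CPM per kilobase. Counts at or near 0 in KO limit the fold changes of Catsper1, Catsper3, Catsper4 and Catsperb. With 1 library left out, genes called ran from 0 (without KO replicate 2) to 18 (without WT replicate 3) in Spg, from 112 (without Spg KO replicate 3) to 1005 (without Spc KO replicate 3) between KO stages and from 3793 (without Spg KO replicate 3) to 8993 (without Spc WT replicate 3) in the interaction. The cause of these shifts was not tested.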
